A study of Homo sapiens with 34 samples.

Results

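Embryoid bodies (EBs) of the H1 line, an established line of human embryonic stem cells, were compared with unsorted cells sampled 2 days later, at the start of a differentiation towards blood that uses no haematopoietic cytokines. The 6 samples were chosen by their labels, 3 libraries of day 0 EBs and 3 of day 2 cells, out of 34 samples in the series. The question the comparison addresses is which genes change as mesoderm is first induced. The day 4 cells (3 libraries, unsorted) and 1 library of undifferentiated H1 cells are given beside the members where they show what came before or after, and the latter has no replicate.

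All groups came from this 1 cell line and the labels name no transgene. The day 0 libraries are labelled as EBs under BMP4+hVEGF, the day 2 and day 4 libraries as total differentiated cells under hVEGF, and the undifferentiated library as untreated. The methods describe a different timing. EBs made overnight in mTeSR1 with Thiazovivin were put on collagen IV at day 0, with BMP4, VEGF and Thiazovivin. At the change of medium that followed, a haematopoietic medium replaced mTeSR1, with VEGF alone as growth factor. In this timing day 4 cells had been through that change, and whether day 2 cells had is not stated. By the methods, 2 days of culture, attachment to collagen IV, exposure to BMP4 and VEGF and a higher dose of Thiazovivin separate the groups. By the labels, the day 0 EBs had already met BMP4 and VEGF. Which timing holds is not settled here, and these differences cannot be told apart. The study sent its samples to 2 sequencing companies and the sources used here do not say which library went where. A difference of company between the groups therefore cannot be told apart from the difference of day.

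The deposited values are read counts per gene that the study normalised for GC content and between samples, rounded to whole numbers and not corrected for gene length. Each of the 34 columns holds the same 20255 numbers in another order, from 0 to 90700 with a median of 197, so a value works like a rank and levels are compared between samples and never between genes. Depth is unknown for the same reason. Log2(value + 1) of 2 libraries correlated across genes at 0.979 to 0.982 within day 0, at 0.983 to 0.985 within day 2 and at 0.920 to 0.934 between the days, a description over genes that are not independent.

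In the embryo, mesoderm forms at the primitive streak, where epiblast cells respond to BMP, WNT and nodal ligands, switch on T-box and homeobox factors such as brachyury, eomesodermin and MIXL1, loosen their contacts and move inwards. Cells that leave the streak express MESP1 and then factors of their destination, such as HAND1 and FOXF1 in lateral and extraembryonic mesoderm, and carry receptors such as KDR, PDGFRA and APLNR. The same BMP4 signal can also direct human pluripotent cells to amnion-like or trophoblast-like fates, and nodal signalling to endoderm. Blood and endothelium come later, from mesoderm that expresses KDR.

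Between day 0 and day 2, 871 genes rose and 688 fell among 19788 genes tested, at a limma adjusted p below 0.05 and a fold change above 4. These are 4.40% and 3.48% of the genes tested, 7.88% together, and serve as the background for every count given for a group of genes here. In unsorted cells, a larger share of cells with a transcript and more of it per cell cannot be told apart. Rises went further than falls: 254 genes rose and 58 fell by over 4 on the log2 scale, and 81 genes rose and 10 fell by over 6. Of the called genes, 851 of the rises and 661 of the falls had all 3 libraries of one day above all 3 of the other; over all genes tested, 25.5% stood apart in this way with day 2 higher and 28.4% with day 2 lower. Of the rises, 743 were protein-coding, 60 lincRNA and 56 antisense genes in GENCODE v29, against 554, 60 and 53 of the falls. The shares were 4.55% and 3.39% of 16324 protein-coding, 4.35% and 4.35% of 1380 lincRNA and 3.51% and 3.32% of 1596 antisense genes tested, near those of all genes. A pseudocount of 10 in place of 1 lowered the counts to 507 rises and 336 falls, and a minimum value of 100 in at least 3 samples left 427 falls.

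**Figure D1:**
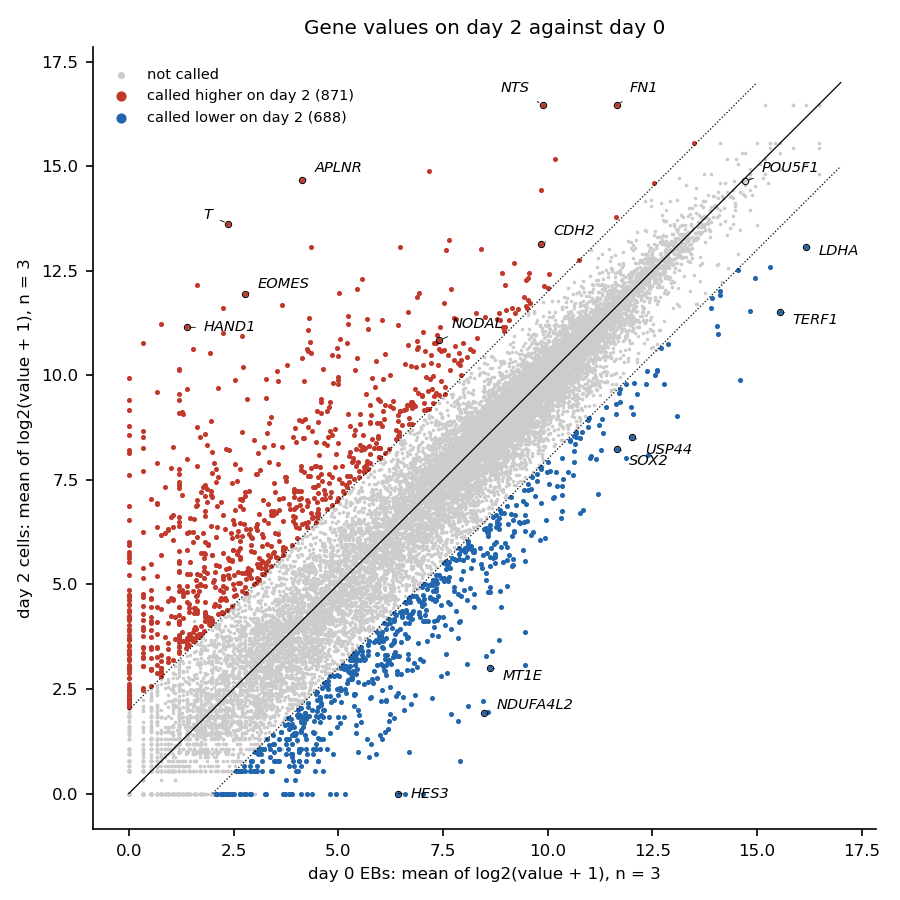
Mean of log2(value + 1) of each gene over the 3 day 0 EBs (x axis) and the 3 day 2 cells (y axis), with genes called higher (871) in red, called lower (688) in blue and others in grey; genes of chromosome Y and XIST are not drawn. The solid line marks equal values and the dotted lines a fold change of 4, and the red points reach farther from the solid line than the blue points do.

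Marker genes of several cell types were summed in each library to check the labels; the sums are compared between libraries and not between cell types, since values of different genes are not on 1 scale. Of 6 markers of pluripotent stem cells (POU5F1, NANOG, SOX2, LIN28A, DPPA4 and TDGF1), none was near 0 on either day, and their sum lay between 78334 and 85129 in the EBs and between 55410 and 59237 in day 2 cells. Of 7 markers of primitive streak and mesoderm, 6 rose, and the sum went from 4219 to 4835 up to 39245 to 39994. The sum of 5 endothelial markers was 440 to 495 on day 0 and lower, at 235 to 289, on day 2, with ESAM called higher and none lower. The sum of 6 blood markers was lower too (246 to 377 and 102 to 122), with none called and PTPRC listed at 0 on day 2. The 5 markers of definitive endoderm went from 11 to 37 up to 1046 to 1258, with SOX17 and FOXA1 called and FOXA2, HNF4A and TTR not. Most of this day 2 sum was SOX17 alone (994, 1128 and 1222), a gene that the blood and endothelial list below also holds. The 5 amnion markers went from 849 to 1103 up to 2600 to 2829. Of these, ISL1, TFAP2A and TFAP2B were called higher, and GABRP was lower in every day 2 library. The 5 markers of fibroblasts and stroma went from 2180 to 4654 down to 1034 to 1228. Among them POSTN was called higher and none lower. For trophectoderm (4 of 6 markers in the data) the sum went from 75 to 98 up to 233 to 287, with TP63 called higher. For neural ectoderm (2 of 5) it was 10 to 37 and 34 to 38, with SIX3 called higher. The part of such other cells in the results was not tested.

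Of 22 primitive streak genes, all of which were tested, 17 rose and none fell (77.3%), with a median log2 fold change of 6.33, against -0.01 over all genes tested. The rise of T, the gene of brachyury (ENSG00000164458, chromosome 6, 166157656 to 166168700 on the minus strand of hg38), was the largest of all called genes whose groups did not overlap at the pseudocount of 1 used here. With 0.1, several genes with day 0 values at 0 exceeded T (11.54), among them GATA3 (13.255), CDX2 (12.94) and GATA6 (12.77). T was listed at 4, 3 and 6 in the day 0 EBs and at 12784, 13287 and 11964 on day 2 (log2 fold change 11.25 ± 0.66, adjusted p = 2.52e-13). In the undifferentiated library it stood at 5, and on day 4 at 147, 119 and 68, so of these 4 groups day 2 alone held high values.

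Most other transcription factors of the streak rose with it. EOMES, a T-box factor of the streak and early endoderm (ENSG00000163508, chromosome 3, 27715949 to 27722711 on the minus strand of hg38), went from 4, 6 and 8 to 4116, 3542 and 4243 (log2 fold change 9.18 ± 0.77, adjusted p = 3.28e-10). MIXL1, a homeobox factor (ENSG00000185155, chromosome 1, 226223618 to 226227054 on the plus strand of hg38), went from 24, 14 and 22 to 8684, 8802 and 8281 (log2 fold change 8.71 ± 0.94, adjusted p = 3.65e-08). EVX1, a homeobox factor of the posterior streak, went from 2, 4 and 1 to 4508, 4783 and 4428 (log2 fold change 10.52 ± 0.65, adjusted p = 6.31e-13), as did its antisense neighbour EVX1-AS, from 0 in every day 0 library to 338, 278 and 282; whether counting used strand is not stated, so the 2 cannot be separated. LHX1 (6.47 ± 0.78) and SP5, a target of WNT signalling (5.66 ± 0.49), rose too. GSC, a factor of the anterior streak, was listed at 0 in all 3 day 0 libraries and at 372, 369 and 396 on day 2. The 3 factors that did not pass were FOXA2 (6, 6 and 34 on day 0, 36, 48 and 17 on day 2), OTX2 (302, 544 and 367 and 902, 1014 and 967) and FOXH1 (2612, 2630 and 2700 and 4504, 4539 and 4030), the last a partner of SMAD proteins. OTX2 and FOXH1 had higher values in every day 2 library, with an adjusted p of 0.00773 and 0.000656 when only the 6 libraries were fitted but a fold change under 4, and FOXA2 was called without day 0 replicate 3 (log2 fold change 2.19).

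All 7 ligands of the list rose. WNT8A went from 1, 2 and 2 to 770, 784 and 886 (log2 fold change 8.28 ± 0.40, adjusted p = 4.11e-15) and WNT3, required for the streak in mice, from 46, 48 and 60 to 2236, 2194 and 2174 (log2 fold change 5.41 ± 0.24, adjusted p = 5.86e-16). FGF17 (8.24 ± 0.84), FGF4 (6.19 ± 0.48), WNT3A (5.62 ± 0.40) and FGF8 (4.32 ± 0.73) rose from day 0 values of at most 30. NODAL started higher, at 136, 133 and 265, and reached 1902, 1639 and 1949 (log2 fold change 3.43 ± 0.45, adjusted p = 8.48e-07). Of the 5 secreted inhibitors, the WNT inhibitor DKK1 rose from 6, 4 and 2 to 2095, 2209 and 1916 (log2 fold change 8.78 ± 0.59, adjusted p = 3.47e-12) and CER1, which binds nodal and BMP, from 28, 22 and 49 to 4504, 4148 and 3419 (log2 fold change 6.96 ± 0.79, adjusted p = 8.5e-08). DKK4 was listed at 0 in all day 0 libraries, at 312, 314 and 232 on day 2 and again at 0 in all day 4 libraries. LEFTY2 (1.18 ± 0.81) and LEFTY1 (-0.95 ± 0.86), inhibitors of nodal, did not pass.

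Day 4 values of the streak genes were set beside these. Against day 2, 983 genes were called higher on day 4 (4.97%) and 896 lower (4.53%) over all genes tested. T (-6.89 ± 0.66), EOMES (-5.69 ± 0.77), MIXL1 (-6.09 ± 0.94), CER1 (-7.61 ± 0.79) and NODAL (-4.31 ± 0.45) were lower on day 4 than on day 2 by the same test, and FGF8 was listed at 4, 0 and 0. Both comparisons use the same day 2 libraries, so their values are set side by side and not related to each other.

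**Figure D2:**
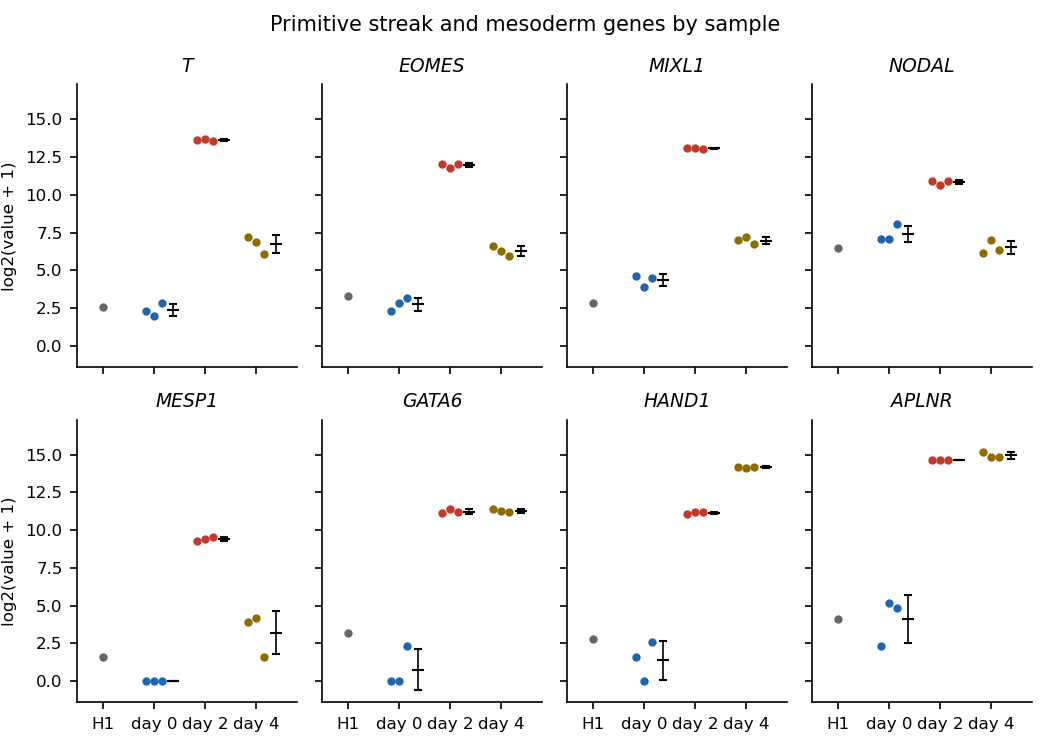
Log2(value + 1) of 8 genes in each library of undifferentiated H1 cells (1 sample, grey), day 0 EBs (blue), day 2 cells (red) and day 4 cells (brown, 3 samples each), with the mean and SD at the right of each group of 3. T, EOMES, MIXL1, NODAL and MESP1 are high on day 2 and lower on day 4, while GATA6, HAND1 and APLNR stay high or go on rising.

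Promoters were read for the members that moved together. RefSeq windows from 250 bases before to 50 after a start (GRCh38.p14) were matched to 13894 genes of the table, 559 of them called higher and 440 called lower. The letters CTTTGAT, bound by the TCF and LEF factors that carry WNT signals, stood on either strand in the windows of 24 of the 559 risers (4.29%), 14 of the 440 fallers (3.18%), 314 of the 13714 genes tested (2.29%) and 867 of all 27305 genes with a window (3.18%). AGATAA, letters of GATA factors, stood in 12.7%, 9.77%, 8.98% and 12.4% of the same sets. For TCACACCT, letters of T-box factors, the shares were 1.07%, 2.05%, 1.13% and 1.21%, and for the octamer ATGCAAAT 1.97%, 3.18%, 2.04% and 2.19%. None of these strings contains another, no test was made, and a match is not a bound site.

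Among called members of the streak and mesoderm lists, CTTTGAT or its reverse complement ATCAAAG was found in 3 promoters, shown here up to the first base of the gene in RefSeq or in the table, whichever comes first, so that the position of the letters can be seen. The capitals mark the match, which begins 76 bases before the RefSeq start in MIXL1, 109 in SP5 and 46 in HAND1.
MIXL1, chr1:226223414-226223617, plus strand: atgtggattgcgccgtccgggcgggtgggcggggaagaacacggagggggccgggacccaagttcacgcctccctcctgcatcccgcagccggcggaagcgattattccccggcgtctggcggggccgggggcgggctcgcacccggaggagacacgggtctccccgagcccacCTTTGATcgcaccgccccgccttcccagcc
SP5, chr2:170715087-170715336, plus strand: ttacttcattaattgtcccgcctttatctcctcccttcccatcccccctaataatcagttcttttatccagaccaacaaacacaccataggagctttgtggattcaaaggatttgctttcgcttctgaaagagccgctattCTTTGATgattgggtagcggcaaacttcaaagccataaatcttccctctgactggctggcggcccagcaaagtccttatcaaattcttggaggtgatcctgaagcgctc
HAND1, chr5:154478265-154478477, minus strand: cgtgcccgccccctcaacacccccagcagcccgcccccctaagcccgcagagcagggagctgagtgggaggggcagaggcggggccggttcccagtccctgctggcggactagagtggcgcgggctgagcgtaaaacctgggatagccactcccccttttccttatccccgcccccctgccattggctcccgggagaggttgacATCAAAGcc

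Nascent and lateral mesoderm genes rose almost as a whole. Of 42 genes, all tested, 38 rose (90.5%) and none fell, with a median log2 fold change of 4.88, or 4.81 without the 3 genes listed at 0 in every day 0 library. Of 30 transcription factors 28 rose. GATA6, a zinc finger factor of endoderm and cardiac mesoderm (ENSG00000141448, chromosome 18, 22169443 to 22202528 on the plus strand of hg38), went from 0, 0 and 4 to 2216, 2702 and 2310 (log2 fold change 10.46 ± 0.42, adjusted p = 1.25e-16), and its relatives GATA4 (8.37 ± 0.47) and GATA5 (5.91 ± 0.54) rose too. MESP1, the factor of the earliest cardiovascular mesoderm, was listed at 0 in the 3 day 0 libraries, at 616, 678 and 744 on day 2 and at 14, 17 and 2 on day 4. MSGN1, a factor of presomitic mesoderm, went from 0 in all 3 to 402, 442 and 492 and stood at 4, 68 and 16 on day 4. TBX6, which acts in the same tissue, was already present at 136, 122 and 94 and reached 1936, 1984 and 1563 (log2 fold change 3.96 ± 0.31, adjusted p = 6.97e-11).

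Factors of lateral and extraembryonic mesoderm also rose between day 0 and day 2. HAND1 went from 2, 0 and 5 to 2126, 2312 and 2370 (log2 fold change 9.76 ± 0.48, adjusted p = 6.17e-15) and to 18763, 17356 and 18763 on day 4. FOXF1 was listed at 0 on day 0, at 556, 574 and 606 on day 2 and at 1034, 751 and 940 on day 4. TBX3 went from 2, 6 and 4 to 2847, 3348 and 3164 (log2 fold change 9.37 ± 0.28, adjusted p = 5.07e-19), ISL1 from 2, 0 and 4 to 544, 641 and 451 (log2 fold change 7.78 ± 0.70, adjusted p = 1.35e-09), and LEF1, a mediator of WNT signals, from 3, 6 and 6 to 876, 1008 and 940 (log2 fold change 7.34 ± 0.30, adjusted p = 1.41e-16). CDX2 (10.44 ± 0.55) and CDX1 (8.22 ± 0.40), regulators of HOX genes in the posterior body, rose from values of 2 or less. FOXC1 (7.47 ± 0.62), NKX2-5 (6.78 ± 0.64), MEIS2 (5.29 ± 0.16), MEIS1 (4.82 ± 0.38), FOXC2 (4.81 ± 0.72), MESP2 (4.30 ± 0.48) and PAX2 (4.14 ± 0.58) rose as well.

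Several factors of later mesoderm passed the test at low values. HAND2 went from 0, 1 and 0 to 20, 20 and 8 and then to 2288, 1732 and 2865 on day 4, and PRRX1, a factor of mesenchyme, from 4, 4 and 7 to 20, 32 and 27 and then to 3282, 2602 and 3576. TBX20 (2, 0 and 0 to 30, 28 and 26), TWIST1 (0, 1 and 0 to 16, 28 and 34), OSR1 (2, 4 and 10 to 44, 64 and 36) and CDX4 (16, 14 and 16 to 60, 76 and 68) were similar in size. With a pseudocount of 10 these 6 and FGF10 were no longer called, and CDX4 was also not called without day 2 replicate 2 (log2 fold change 1.99). MEOX1 (2, 0 and 0 to 2, 2 and 4) and TBX5 (0, 6 and 4 to 0, 2 and 0) did not pass, but MEOX1 was called higher with a pseudocount of 0.1 (adjusted p = 0.00517) and TBX5 lower without day 0 replicate 1 (adjusted p = 0.0332).

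Receptors and ligands of this mesoderm differed in size. APLNR, the apelin receptor of cells leaving the streak (ENSG00000134817, chromosome 11, 57233577 to 57237314 on the minus strand of hg38), went from 4, 36 and 28 to 25856 in each of the 3 day 2 libraries (log2 fold change 10.53 ± 0.48, adjusted p = 1.59e-15). PDGFRA went from 24, 29 and 68 to 1622, 1888 and 1757 (log2 fold change 5.56 ± 0.42, adjusted p = 5.67e-11), and ROR2 (4.06 ± 0.26) and CXCR4 (2.60 ± 0.69) rose less. KDR, the VEGF receptor that marks the mesoderm from which blood and vessels arise, was already at 4777, 4370 and 4110 in EBs and reached 9485, 9485 and 9886 on day 2 and 25836, 29000 and 25836 on day 4. Its day 2 difference (log2 fold change 1.12 ± 0.36, adjusted p = 0.0144) lay below the fold change of 4, and so did that of PDGFRB (log2 fold change 0.88 ± 0.19, adjusted p = 0.000465). RSPO3, which strengthens WNT signals (log2 fold change 8.96 ± 0.64, adjusted p = 1.44e-11), HAS2, the hyaluronan synthase (log2 fold change 6.60 ± 0.53, adjusted p = 1.3e-10), BMP4 itself (log2 fold change 5.64 ± 0.37, adjusted p = 2.06e-12), the Notch ligands DLL1 (4.93 ± 0.35) and DLL3 (2.78 ± 0.65), and FGF10 (2.79 ± 0.52) all rose. The value of BMP4 stood at 18, 40 and 30 on day 0 and at 1332, 1534 and 1455 on day 2.

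Of 61 blood and endothelial genes tested, 9 rose (14.8%) and 1 fell, with a median of 0.56. Of the 25 transcription factors, 7 rose: SOX17 from 1, 2 and 1 to 994, 1128 and 1222 (log2 fold change 8.92 ± 0.56, adjusted p = 1.12e-12), GATA2 from 15, 24 and 14 to 889, 972 and 943 (log2 fold change 5.68 ± 0.31, adjusted p = 4.08e-14), LMO2 (3.38 ± 0.27), LYL1 (3.27 ± 0.24), RUNX1 (2.62 ± 0.30), HEY1 (2.13 ± 0.42) and NFE2 (2.08 ± 0.42). RUNX1, required for blood stem cells to form from endothelium, went only from 8, 16 and 10 to 68, 75 and 74 and reached 345, 486 and 444 on day 4. With a pseudocount of 10, RUNX1 (1.97), HEY1 (1.97) and NFE2 (1.81) fell under the limit of 2, and HEY1 did so without day 2 replicate 2 (1.98). ERG, a factor of endothelium and blood stem cells, fell from 50, 86 and 102 to 8, 15 and 10 (log2 fold change -2.72 ± 0.37, adjusted p = 1.4e-06) and stood at 716, 884 and 838 on day 4.

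The other factors of this list did not pass the fold change of 4. TAL1, needed for all blood, was at 1, 3 and 8 on day 0, at 13, 16 and 16 on day 2 and at 1837, 2431 and 1856 on day 4 (log2 fold change 1.94 ± 0.42 for the first of these steps and 6.99 ± 0.42 for the second). FLI1 stood at 3, 8 and 12, 8, 20 and 7 and then 1892, 1977 and 1803. ETV2, which specifies endothelium and blood from KDR-positive mesoderm, was at 22, 14 and 26 and 63, 82 and 62 (log2 fold change 1.72 ± 0.43, adjusted p = 0.00224). MECOM (1.98 ± 0.48), SOX7 (1.98 ± 0.36), SOX18 (1.74 ± 0.43), GFI1 (1.65 ± 0.47), KLF1 (1.61 ± 0.44) and ELK3 (0.95 ± 0.20) were higher on day 2 at an adjusted p below 0.05 with smaller fold changes, and IKZF1, SPI1, GFI1B, ETS1, HHEX, GATA1, HEY2 and MYB had an adjusted p above 0.05. Without 1 or another of the libraries MECOM, SOX7, TAL1, GFI1 and KLF1 crossed the limit, with log2 fold changes up to 2.49.

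Of 20 endothelial surface genes, the VEGF co-receptor NRP1 rose from 12, 12 and 11 to 271, 378 and 289 (log2 fold change 4.62 ± 0.40, adjusted p = 5.29e-10) and ESAM from 4, 0 and 2 to 16, 16 and 20 (log2 fold change 2.89 ± 0.51, adjusted p = 5.51e-05), the latter not with a pseudocount of 10 (1.20). CDH5, the cadherin of endothelium, stood at 18, 50 and 38 on day 0, 18, 16 and 16 on day 2 and 2330, 2512 and 2248 on day 4, and PECAM1 at 3, 13 and 8, 2 in all 3 and 1362, 1304 and 1590. CD34 had day 0 values of 14, 16 and 20 and day 2 values of 10, 6 and 10. FLT1 (log2 fold change -1.62 ± 0.33, adjusted p = 0.000362), TEK (log2 fold change -1.53 ± 0.35, adjusted p = 0.00123), PECAM1 (log2 fold change -1.41 ± 0.34, adjusted p = 0.00195), CD34 (log2 fold change -0.89 ± 0.34, adjusted p = 0.0419) and EGFL7 (log2 fold change -0.66 ± 0.19, adjusted p = 0.00655) were lower on day 2 at an adjusted p below 0.05, short of the fold change of 4. NRP2 (log2 fold change 1.11 ± 0.24, adjusted p = 0.00056) was higher in the same sense. MCAM, S1PR1, VWF, ENG, TIE1, CLDN5, ROBO4, PLVAP, EMCN and FLT4 had an adjusted p above 0.05. None of the 16 blood surface or product genes was called, among them the globin genes HBG2, HBE1, HBA2, HBZ, HBG1 and HBA1, the receptor genes CSF1R, EPOR, KIT and TFRC, and GYPB, SPN, ITGA2B and PTPRC. Of the 16, 4 were lower on day 2 at an adjusted p below 0.05, short of the fold change of 4. These were ITGA2B (log2 fold change -1.65 ± 0.45, adjusted p = 0.00493), SPN (-1.08 ± 0.37, adjusted p = 0.0228), TFRC (-0.95 ± 0.25, adjusted p = 0.00353) and EPOR (-0.45 ± 0.16, adjusted p = 0.026). GYPB was called higher (adjusted p = 0.0143) and PTPRC lower (adjusted p = 0.0068) with a pseudocount of 0.1.

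HOX genes, which give cells their position along the body axis, rose widely at low values. Of 38 tested, 22 rose (57.9%) and none fell, 15 of the 38 being listed at 0 in every library of at least 1 day; the median log2 fold change was 3.23, or 3.11 without those 15. By cluster, 7 of 10 HOXA, 9 of 10 HOXB, 1 of 9 HOXC and 5 of 9 HOXD genes rose. Among genes of the near end, HOXD1 rose from 1, 2 and 1 to 124, 167 and 187 (log2 fold change 6.11 ± 0.91, adjusted p = 6.31e-06) and HOXB1 from 0, 1 and 0 to 86, 72 and 68 (log2 fold change 5.91 ± 0.75, adjusted p = 5.68e-07). The HOXB cluster held the other large rises, HOXB6 from 0, 1 and 0 to 178, 258 and 202 (log2 fold change 7.39 ± 0.33, adjusted p = 8.22e-16) and HOXB9 from 1, 2 and 1 to 159, 196 and 171 (log2 fold change 6.26 ± 0.34, adjusted p = 3.86e-14). Genes of the far end also rose, HOXA13 from 1, 2 and 1 to 48, 62 and 56, HOXB13 from 1, 2 and 4 to 62, 90 and 58, HOXC13 from 4, 1 and 0 to 20, 16 and 17 and HOXD13 from 0 in all 3 to 22, 30 and 24. HOXD1 was at 4, 15 and 4 on day 4, while HOXB6 stood at 2500, 2441 and 2300. With a pseudocount of 10, 10 HOX genes were called.

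Genes listed for trophectoderm and amnion also rose, many of them shared with mesoderm. Of 29 tested, 16 rose (55.2%) and none fell, with a median of 3.08. All 12 transcription factors tested rose, among them CDX2, HAND1, ISL1 and GATA2, which other lists here also hold. GATA3, a factor of trophectoderm that BMP induces, was listed at 0 on day 0 and at 932, 1095 and 915 on day 2, and its neighbour on the other strand, GATA3-AS1, at 0 and at 202, 204 and 185. MSX1 went from 3, 0 and 5 to 1403, 1783 and 1552 (log2 fold change 9.09 ± 0.54, adjusted p = 2.6e-13), TFAP2A from 1, 3 and 6 to 1436, 1542 and 1467 (log2 fold change 8.60 ± 0.43, adjusted p = 7.36e-15) and TFAP2C from 264, 144 and 164 to 1494, 1638 and 1566 (log2 fold change 3.08 ± 0.53, adjusted p = 4.58e-05). MSX2 (5.69 ± 0.27), DLX3 (5.38 ± 0.47), TP63 (4.37 ± 0.67) and TFAP2B (3.85 ± 0.59) rose too. Of 17 surface, keratin or hormone genes, 4 rose, WNT6 (6.26 ± 0.77), BMP4, ENPEP (3.92 ± 0.20) and IGFBP3 (2.63 ± 0.37). The hormone subunit CGA stood at 0, 4 and 0 on day 0 and 0, 3 and 4 on day 2, the amnion genes GABRP at 1093, 844 and 830 and 716, 583 and 634 and VTCN1 at 6, 4 and 7 and 20, 17 and 22.

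Of 30 endoderm genes, 9 rose and 1 fell. The 9 were GATA6, EOMES, SOX17, GATA4, CER1 and CXCR4, given above, and PRDM1 (5.32 ± 0.42), FOXA1 (2.15 ± 0.56) and RBP4 (2.09 ± 0.83); AFP fell from 15, 8 and 28 to 4, 4 and 1 (log2 fold change -2.13 ± 0.65, adjusted p = 0.011). Of 21 neural ectoderm genes tested, 3 rose and 6 fell. POU3F1, an early neural and epiblast factor, fell from 1334, 1460 and 1082 to 106, 106 and 78 (log2 fold change -3.73 ± 0.56, adjusted p = 6.79e-06), HESX1 from 58, 54 and 102 to 6, 8 and 6 (log2 fold change -3.19 ± 0.39, adjusted p = 3.1e-07) and FEZF1 from 83, 167 and 88 to 8, 19 and 32 (log2 fold change -2.58 ± 0.61, adjusted p = 0.00152), beside SOX3, MAP2 (-2.39 ± 0.67) and STMN2 (-2.23 ± 0.64). DLX5, a factor of the neural plate border, rose from 0, 1 and 0 to 376, 466 and 376 (log2 fold change 8.33 ± 0.70, adjusted p = 3.3e-10), and POU3F2 (2.12 ± 0.73) and SIX3 (2.27 ± 0.80) passed at values of at most 28, those of SIX3 overlapping between the days and not called in the fit of 6 libraries (adjusted p = 0.195). With a pseudocount of 10 the calls of RBP4, AFP, FOXA1, STMN2, POU3F2 and SIX3 were lost, and with 0.1 those of RBP4, POU3F2 and FEZF1. Without single libraries RBP4 (all but day 0 replicate 3), SIX3 (all but day 0 replicate 2 and day 2 replicate 3), POU3F2 (day 0 replicate 1 or 2, day 2 replicate 2), AFP (day 0 replicate 3 or day 2 replicate 3), FOXA1 (day 0 replicate 1 or 3) and STMN2 (day 0 replicate 2) were not called either, with log2 fold changes of 1.58 to 2.31 in size.

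Pluripotency genes moved both ways. Of 47 tested, 11 fell (23.4%) and 3 rose (6.38%), with a median of -0.85. POU5F1, the gene of OCT4, was listed at 25776, 28960 and 25776 on day 0 and at 25776 in each day 2 library (log2 fold change -0.06 ± 0.55, adjusted p = 0.971), and only on day 4 stood at 2618, 2328 and 2176. SOX2, its partner, fell from 3048, 3656 and 3000 to 325, 215 and 396 (log2 fold change -3.41 ± 0.73, adjusted p = 0.000524) and was at 16, 49 and 10 on day 4. NANOG was lower in every day 2 library (2913, 2584 and 2574 on day 0, 1026, 814 and 1288 on day 2) but short of the limits (log2 fold change -1.39 ± 0.69, adjusted p = 0.121). When only the 6 libraries were fitted, its adjusted p was 0.00285, with the same log2 fold change, still below a fold change of 4. The main fit estimates 1 variance per gene over all 33 samples.

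TERF1, a telomere-binding protein of the list, fell from 48056 in each day 0 library to 3165, 2415 and 3349 (log2 fold change -4.03 ± 0.18, adjusted p = 1.46e-15). Other transcription factors of pluripotency that fell were FOXD3 (-3.77 ± 0.74), SOX3 (-3.23 ± 0.70), PRDM14 (-2.80 ± 0.54), TCF7L1 (-2.33 ± 0.27) and UTF1 (-2.10 ± 0.62). TCF7L1, a repressor of WNT targets in stem cells, went from 3280, 3016 and 3208 to 712, 577 and 612. With a pseudocount of 0.1 the calls of UTF1 (adjusted p = 0.131), PRDM14 (0.067), FOXD3 (0.0641) and SOX3 (0.0523) were lost, and that of UTF1 also with a pseudocount of 10 (-1.63), without day 0 replicate 3 (-1.97) and without day 2 replicate 3 (-1.80). SALL1 (log2 fold change 1.13 ± 0.41, adjusted p = 0.0323), SALL4 (log2 fold change 0.37 ± 0.10, adjusted p = 0.0032) and KLF4 (log2 fold change 1.13 ± 0.33, adjusted p = 0.0074) were higher, and SALL2 (log2 fold change -1.48 ± 0.35, adjusted p = 0.00143) and ZNF398 (log2 fold change -1.78 ± 0.12, adjusted p = 5.02e-12) lower, at an adjusted p below 0.05 and a fold change under 4. ETV4, ZFP42, TFCP2L1, ZIC2 and ZSCAN10 had an adjusted p above 0.05. In the fit of 6 libraries that of ETV4 (0.019), ZIC2 (0.00559) and ZSCAN10 (0.00205) lay below it, at log2 fold changes of 0.13, -0.85 and -1.03.

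Of the other members, HES3, a repressor of the HES family, fell from 40, 80 and 192 to 0 in each day 2 library, DPPA3 from 84, 88 and 75 to 4 in all 3 (log2 fold change -4.06 ± 0.54, adjusted p = 1.11e-06) and JARID2, a partner of Polycomb proteins, from 7028, 6462 and 6462 to 1585, 1670 and 1554 (log2 fold change -2.05 ± 0.14, adjusted p = 3.46e-12). DPPA4 (log2 fold change -1.76 ± 0.14, adjusted p = 2.71e-10), DPPA2 (log2 fold change -1.98 ± 0.43, adjusted p = 0.000701), DNMT3B (log2 fold change -0.82 ± 0.21, adjusted p = 0.00276) and TET1 (log2 fold change -0.89 ± 0.21, adjusted p = 0.00163) were lower by less than the fold change of 4, DPPA2 passing it without day 0 replicate 2 or 3 or day 2 replicate 1 or 2. LIN28B was higher (log2 fold change 0.58 ± 0.15, adjusted p = 0.00287), and LIN28A, L1TD1 and TERT had an adjusted p above 0.05 (TERT 0.000992 in the fit of 6 libraries). Of the signalling and surface members, NODAL and the neuropeptide gene GAL rose, GAL from 584, 402 and 544 to 5130, 3785 and 5038 (log2 fold change 3.19 ± 0.78, adjusted p = 0.00189), and USP44 fell from 4028, 4283 and 4147 to 402, 265 and 454 (log2 fold change -3.51 ± 0.43, adjusted p = 2.64e-07). THY1 (log2 fold change -1.39 ± 0.39, adjusted p = 0.00614), CD24 (log2 fold change -1.42 ± 0.20, adjusted p = 2.19e-06) and PODXL (log2 fold change -1.51 ± 0.31, adjusted p = 0.000323) were lower short of the limit. VRTN, GDF3, CDH1, FGF2, EPCAM, TDGF1, SFRP2, LEFTY1 and LEFTY2 had an adjusted p above 0.05. In the fit of 6 libraries it was below 0.05 for VRTN (0.00767), TDGF1 (0.00815), SFRP2 (0.00429), EPCAM (0.0153), LEFTY2 (0.0259) and LEFTY1 (0.0465), none with a fold change above 4.

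**Figure D3:**
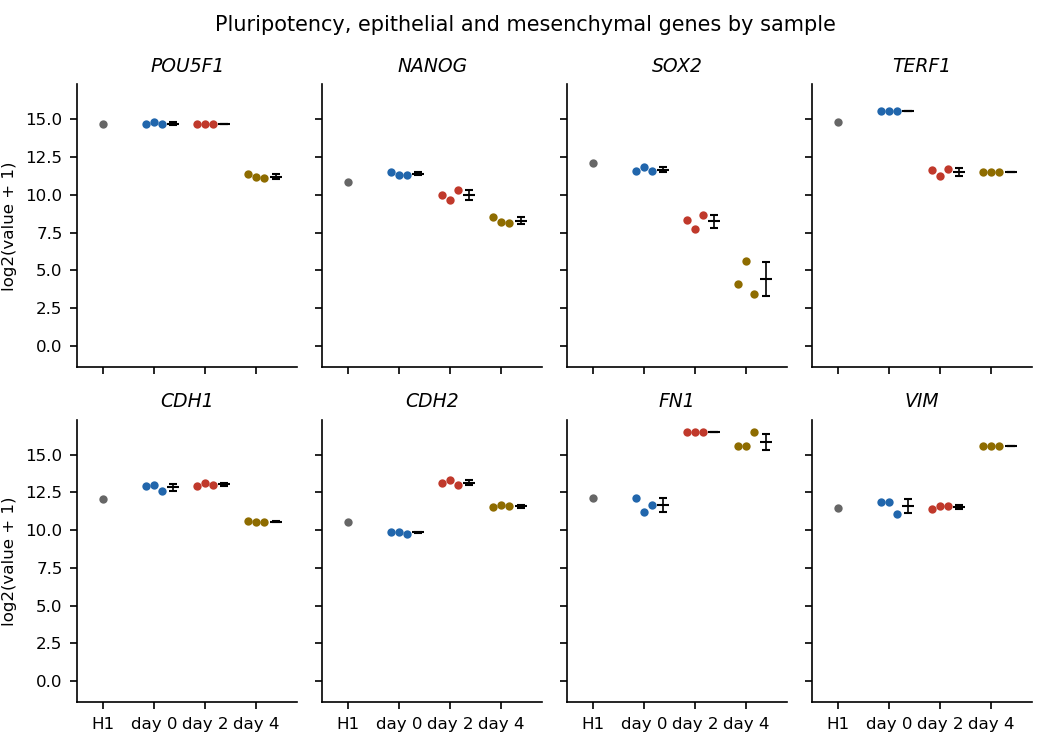
Log2(value + 1) of 8 genes in each library of undifferentiated H1 cells (1 sample), day 0 EBs, day 2 cells and day 4 cells (3 samples each), with the mean and SD at the right of each group of 3. SOX2 and TERF1 fell and CDH2 and FN1 rose by day 2, while POU5F1, CDH1 and VIM differ little between day 0 and day 2 and differ on day 4.

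Of 25 mesenchymal genes tested, 12 rose (48.0%) and none fell, with a median of 1.76. Of 9 regulators 7 rose, including SNAI1, a repressor of E-cadherin, from 218, 217 and 209 to 2691, 2733 and 2509 (log2 fold change 3.62 ± 0.20, adjusted p = 1e-13), SNAI2 from 22, 13 and 10 to 302, 449 and 370 (log2 fold change 4.60 ± 0.52, adjusted p = 6.54e-08) and ZEB2 from 6, 8 and 0 to 196, 238 and 174 (log2 fold change 5.67 ± 0.46, adjusted p = 2.13e-10). CDH2, N-cadherin, rose from 940, 946 and 876 to 8975, 10084 and 8278 (log2 fold change 3.30 ± 0.47, adjusted p = 2.64e-06). FN1, fibronectin, rose from 4434, 2340 and 3247 to 90700, the highest value of the table, in each day 2 library (log2 fold change 4.81 ± 0.43, adjusted p = 1.04e-09), a ceiling above which no larger amount can show. CDH11 (3.76 ± 0.42), ITGA5, the fibronectin receptor (2.39 ± 0.21), and POSTN (2.89 ± 0.36) rose too. VIM, vimentin, stood at 3755, 3754 and 2158 on day 0, at 2690, 3116 and 3048 on day 2 and at 48050 in each day 4 library.

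Of 32 epithelial genes tested, 2 rose and 1 fell, with a median of -0.16. CDH1, E-cadherin, stood at 7633, 8276 and 6070 on day 0 and 7910, 8798 and 8276 on day 2, with overlapping groups, and at 1556, 1492 and 1492 on day 4 (log2 fold change -2.46 ± 0.40, adjusted p = 1.58e-05 against day 2). EPCAM (3682, 3538 and 3320 and 2805, 2732 and 3060), the splicing regulator ESRP1 (3680, 3813 and 3716 and 2804, 2770 and 2878) and CLDN6 (12007, 12840 and 12007 and 11504, 11194 and 10436) had log2 fold changes from -0.41 ± 0.61 to -0.15 ± 0.43. All 3 day 0 values lay above all 3 day 2 values in each of them, and in the fit of 6 libraries the adjusted p was 0.000695 for ESRP1, 0.0153 for EPCAM and 0.0841 for CLDN6. The faller was CLDN3, from 436, 382 and 363 to 86, 58 and 124 (log2 fold change -2.19 ± 0.62, adjusted p = 0.00651), and GRHL1, a grainyhead factor, rose (2.69 ± 0.44). CLDN3 was not called with a pseudocount of 0.1 (adjusted p = 0.0589) or without day 2 replicate 2 (log2 fold change -1.92).

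Of 65 matrix and integrin genes, 9 rose and 3 fell, with a median of -0.08. Beside FN1 and HAS2, FBN2, fibrillin 2, rose from 1128, 1244 and 1118 to 37186 in each day 2 library (adjusted p = 1.24e-13), TNC, tenascin C, from 154, 102 and 112 to 3603, 5396 and 3342 (log2 fold change 5.05 ± 0.61, adjusted p = 2.13e-07), COL9A2 (values of 142, 167 and 92 and 1795, 2414 and 2126) and COL5A1 (2.89 ± 0.26). None of 14 laminin and basement membrane genes was called. Of the integrins, ITGB8 (3.02 ± 0.28), ITGA8 (2.85 ± 0.44) and ITGA5 rose and ITGB4, the integrin of hemidesmosomes, fell from 274, 256 and 188 to 69, 56 and 48 (log2 fold change -2.03 ± 0.36, adjusted p = 6.57e-05). VTN (-2.16 ± 0.74) and COL12A1 (-2.10 ± 0.59) also fell, those of VTN at values that overlap between the days and were not called in the fit of 6 libraries (adjusted p = 0.124). VTN (-0.64), ITGA8 (1.35), ITGB4 (-1.88) and COL12A1 were not called with a pseudocount of 10. Those of VTN (without day 0 replicate 2 or 3 or day 2 replicate 2 or 3), ITGB4 (without day 0 replicate 1 or 2 or day 2 replicate 3) and COL12A1 (without replicate 3 of either day) also rested on single libraries, with log2 fold changes of -1.97 to -1.69 without them.

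**Figure D4:**
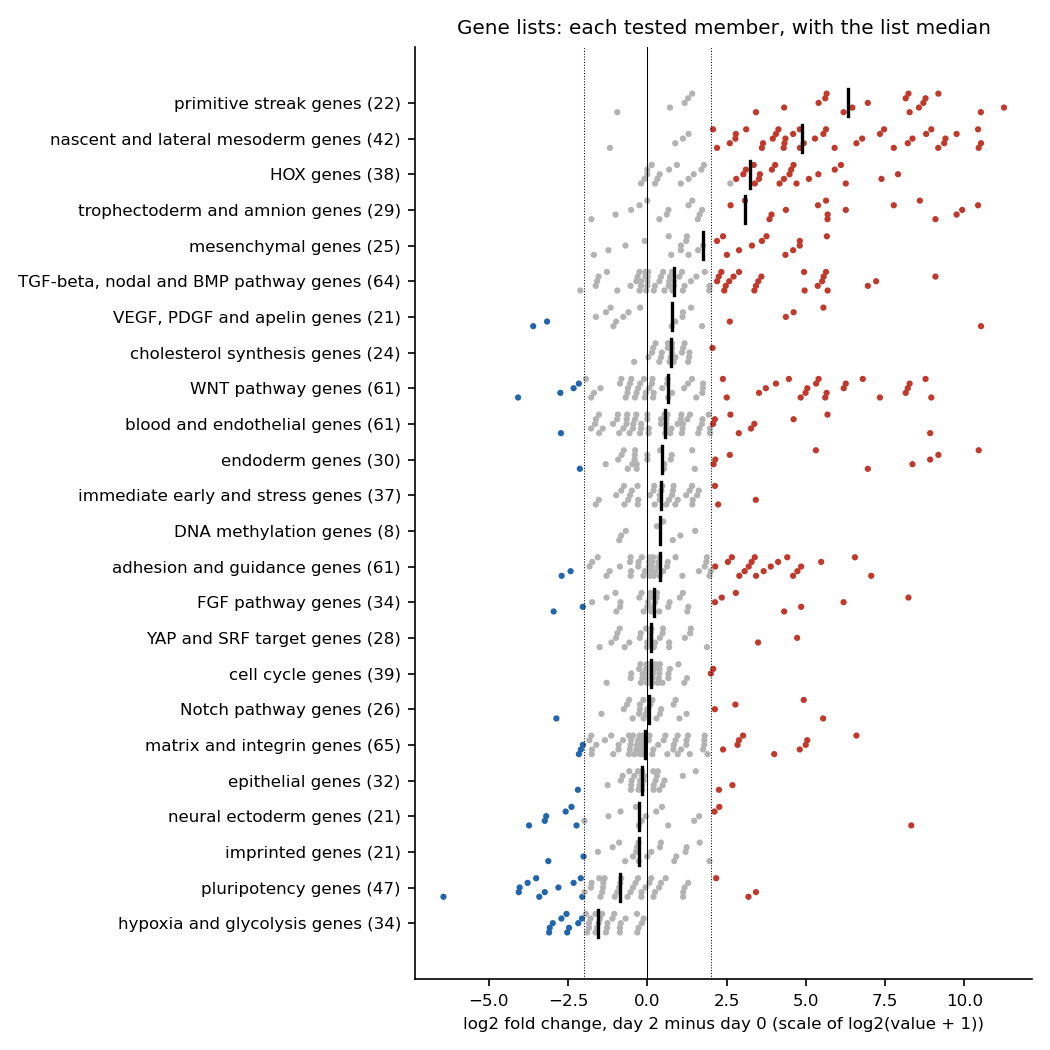
Log2 fold change from day 0 to day 2 of each tested member (points) of 24 gene lists, with the number tested in brackets, members called higher in red, called lower in blue and others in grey, and the list median as a black bar. Lists are ordered by their median, from the primitive streak genes (6.33) to the hypoxia and glycolysis genes (-1.56), and the dotted lines mark a fold change of 4.

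Genes of the signals that act at the streak changed as well. Of 61 WNT pathway genes, 22 rose (36.1%) and 4 fell (6.56%). Of 16 ligands tested, 9 rose, among them WNT5B from 22, 20 and 14 to 1959, 2451 and 2077 (log2 fold change 6.80 ± 0.34, adjusted p = 9.65e-15), WNT5A, which signals without beta-catenin, from 88, 165 and 112 to 3282, 3788 and 4332 (log2 fold change 4.99 ± 0.38, adjusted p = 4.11e-11), WNT9B (5.33 ± 0.58), WNT2 (4.84 ± 0.50) and WNT4 (2.38 ± 0.80, with overlapping groups), while WNT8B fell from 14, 14 and 11 to 0, 2 and 2 (log2 fold change -2.74 ± 0.59, adjusted p = 0.000622). Of 18 receptors 3 rose, LGR5 (5.05 ± 0.87), FZD10 (4.47 ± 0.51) and ROR2. Of the secreted modulators, NOTUM, which removes the lipid of WNT proteins, rose from 4, 19 and 8 to 686, 714 and 722 (log2 fold change 6.20 ± 0.48, adjusted p = 7.27e-11), and SFRP1, an inhibitor that binds WNT, fell from 7165, 9902 and 9501 to 560, 466 and 535 (log2 fold change -4.08 ± 0.29, adjusted p = 1.36e-11), as did WIF1 (-2.16 ± 0.58). Targets and mediators that rose were TCF7 from 202, 220 and 258 to 2616, 2477 and 2733 (log2 fold change 3.52 ± 0.18, adjusted p = 1.2e-14), NKD1 (3.74 ± 0.25) and APCDD1 (2.51 ± 0.42), beside LEF1, CDX1 and SP5. TCF7L1 was the one that fell. WNT4 (1.14), WNT8B (-1.02) and WIF1 were not called with a pseudocount of 10. WNT4 was not called either in the fit of 6 libraries (adjusted p = 0.152) or without day 0 replicate 3 (1.24) or day 2 replicate 1 (2.25) or 3 (2.03), nor WIF1 with a pseudocount of 0.1 (adjusted p = 0.107) or without day 0 replicate 3 (-1.87).

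Of 64 genes of the TGF-beta, nodal and BMP pathways, 22 rose (34.4%) and none fell. Of 18 ligands, 7 rose: beside NODAL and BMP4, BMP2 went from 22, 38 and 36 to 952, 1124 and 904 (log2 fold change 4.95 ± 0.37, adjusted p = 4.42e-11), INHBB from 1, 3 and 4 to 147, 147 and 192 (log2 fold change 5.56 ± 0.46, adjusted p = 2.73e-10), and GDF6 (3.38 ± 0.38), BMP5 (3.60 ± 0.59) and TGFB3 (2.47 ± 0.30) rose. Of 14 receptors only ACVRL1 was called (13, 0 and 8 and 54, 25 and 18). The targets of BMP signalling ID1 (534, 692 and 898 to 3680, 3538 and 3980, log2 fold change 2.43 ± 0.19, adjusted p = 6e-11), ID2 (2.25 ± 0.21) and ID4 (4.96 ± 0.30) rose, as did the inhibitors SMAD6 (2.72 ± 0.23) and BAMBI (2.89 ± 0.17), which the pathway itself induces. Antagonists outside the cell that rose were BMPER (5.52 ± 0.41), GREM1 (5.38 ± 0.93), FST (3.50 ± 0.41) and CHRD (2.34 ± 0.51), beside CER1. SMAD9 (2.20 ± 0.33), MSX1 and MSX2 rose as well. ACVRL1 (1.31), BMP5 (1.66), SMAD9 (1.84) and TGFB3 (1.95) fell under the limit of 2 with a pseudocount of 10. Without day 0 replicate 2, ACVRL1 (1.42) did so, without day 0 replicate 1 CHRD (1.95) and without day 0 replicate 3 ID2 (1.98), and ACVRL1 was not called in the fit of 6 libraries (adjusted p = 0.117).

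Of 34 FGF pathway genes, 7 rose and 2 fell. FGFR2 fell from 1558, 1808 and 1527 to 438, 400 and 354 (log2 fold change -2.04 ± 0.34, adjusted p = 3.37e-05) and FGFR3 rose from 256, 196 and 267 to 1160, 1194 and 1293 (log2 fold change 2.35 ± 0.32, adjusted p = 1.77e-06). FGF11 fell from 2564, 2218 and 1595 to 272, 226 and 314 (log2 fold change -2.95 ± 0.24, adjusted p = 2.58e-10). FLRT3, which acts with FGF receptors, rose (4.85 ± 0.41), and EGR1 passed (2.14 ± 0.56) with overlapping groups, its values being 542, 105 and 82 and 840, 252 and 1904. EGR1 was not called in the fit of 6 libraries (adjusted p = 0.158) or without day 0 replicate 2 or 3 or day 2 replicate 3 (1.80, 1.63 and 1.45), and FGFR2 reached -1.96 without day 0 replicate 2 or day 2 replicate 3. Of 26 Notch pathway genes, DLL1, DLL3, HEY1 and HES7, a factor of the segmentation clock (8, 0 and 4 to 152, 158 and 188, log2 fold change 5.55 ± 0.74, adjusted p = 1.04e-06), rose, and MFNG fell (-2.87 ± 0.29). Of 21 genes listed for VEGF, PDGF and apelin signalling, 5 receptors rose and 2 ligands fell. The receptors were APLNR, PDGFRA and NRP1, with CXCR4 and ACKR3 (4.37 ± 0.28), chemokine receptors that the list also holds. APLN, the ligand of APLNR, fell from 1243, 622 and 416 to 44, 62 and 63 (log2 fold change -3.60 ± 0.99, adjusted p = 0.00535), and PDGFB from 784, 248 and 306 to 30, 49 and 53 (log2 fold change -3.16 ± 0.53, adjusted p = 3.01e-05).

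Of 61 adhesion and guidance genes, 19 rose (31.1%) and 2 fell. PLXNA2, a semaphorin receptor, rose from 21, 13 and 24 to 2600, 2808 and 2521 (log2 fold change 7.06 ± 0.32, adjusted p = 9.77e-16), the protocadherins PCDH19 from 10, 10 and 12 to 1108, 1176 and 994 (log2 fold change 6.55 ± 0.65, adjusted p = 8.15e-09) and PCDH10 from 710, 254 and 220 to 8682, 9499 and 6920 (log2 fold change 4.60 ± 0.39, adjusted p = 5.09e-10), and PCDH8 (5.49 ± 0.73), the paraxial protocadherin, with them. Of 19 ephrins and receptors, EPHA4 (3.67 ± 0.49), EPHB3 (2.90 ± 0.27) and EPHA2 (2.14 ± 0.29) rose. The netrin gene NTN1 went from 40, 68 and 60 to 974, 1085 and 868 and was at 38, 27 and 32 on day 4. UNC5D (log2 fold change -2.70 ± 0.53, adjusted p = 0.000194) and ROBO2 (log2 fold change -2.42 ± 0.40, adjusted p = 2.13e-05) fell.

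Hypoxia and glycolysis genes had their higher values in the EBs, and all 34 had log2 fold changes below 0. Of the 34, 9 fell (26.5%) and none rose, and 30 were lower at an adjusted p below 0.05, against 18.6% of all genes tested. LDHA, which turns pyruvate into lactate (ENSG00000134333, chromosome 11, 18394388 to 18408425 on the plus strand of hg38), fell from 90700, 90700 and 48036 to 8497, 8267 and 8966 (log2 fold change -3.10 ± 0.25, adjusted p = 1.22e-10). PGK1 fell from 48025, 48025 and 28994 to 6134, 6354 and 6134 (log2 fold change -2.71 ± 0.17, adjusted p = 1.44e-12), DDIT4, a stress-induced inhibitor of mTOR, from 10426, 6357 and 5308 to 864, 866 and 950 (log2 fold change -2.98 ± 0.26, adjusted p = 7.04e-10) and BNIP3, a mitophagy receptor, from 7637, 6922 and 4546 to 1138, 992 and 1252 (log2 fold change -2.47 ± 0.26, adjusted p = 1.81e-08). The other fallers were ADM (-3.08 ± 0.42), ENO2 (-2.55 ± 0.28), EGLN1, which marks HIF proteins for decay (-2.53 ± 0.24), PFKFB4 (-2.18 ± 0.29) and ALDOC (-2.06 ± 0.24). Several day 0 values were highest in replicate 1, and without it 7 of the 34 were called, not ALDOC and PFKFB4 (-1.91), against 13 without replicate 3. HIF1A, the gene of the oxygen-regulated factor itself and outside the list, stood at 7778, 9499 and 8510 on day 0 and 9726, 10442 and 9499 on day 2. SLC2A3 stood at 29004, 25842 and 22818 and 18755, 22818 and 20400. The days met at a shared value in both, 9499 for HIF1A and 22818 for SLC2A3, and did not cross otherwise. VEGFA was lower (log2 fold change -1.30 ± 0.32, adjusted p = 0.00205).

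The undifferentiated library was set beside these values. Of the 9 fallers, 6 had an undifferentiated value nearer on the log scale to day 2 than to day 0, among them LDHA (9233), PGK1 (7764) and BNIP3 (1584), while ADM (2409) was nearer to day 0. Over all genes called lower the undifferentiated value was nearer to day 2 for 95 of 688 (13.8%), over those called higher for 108 of 871 (12.4%), and for none of the 11 pluripotency fallers. This is 1 library, without replicate, and no test was made.

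Metallothionein genes, which bind zinc and copper, formed another group of fallers; it was chosen after the values were seen. All 7 MT1 and MT2 genes tested fell, MT1H from 345, 90 and 656 to 3, 18 and 0 (log2 fold change -6.02 ± 0.66, adjusted p = 5.13e-08), MT1E from 470, 176 and 751 to 4, 14 and 6 (log2 fold change -5.62 ± 0.70, adjusted p = 4.33e-07), MT2A from 1244, 473 and 2409 to 78, 120 and 256 (log2 fold change -3.06 ± 0.47, adjusted p = 8.16e-06), and MT1G (-5.15 ± 0.49), MT1M (-4.60 ± 0.66), MT1F (-2.77 ± 0.61) and MT1X (-2.31 ± 0.49). These genes are near-identical neighbours on chromosome 16 that may share reads, and their day 0 values differed widely between replicates. The undifferentiated library was nearer to day 2 for 3 of the 7. With the replicate number as a block in the fit of 6 libraries, MT1F (adjusted p = 0.0981) and MT1H (adjusted p = 0.0696) were not called.

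**Figure D5:**
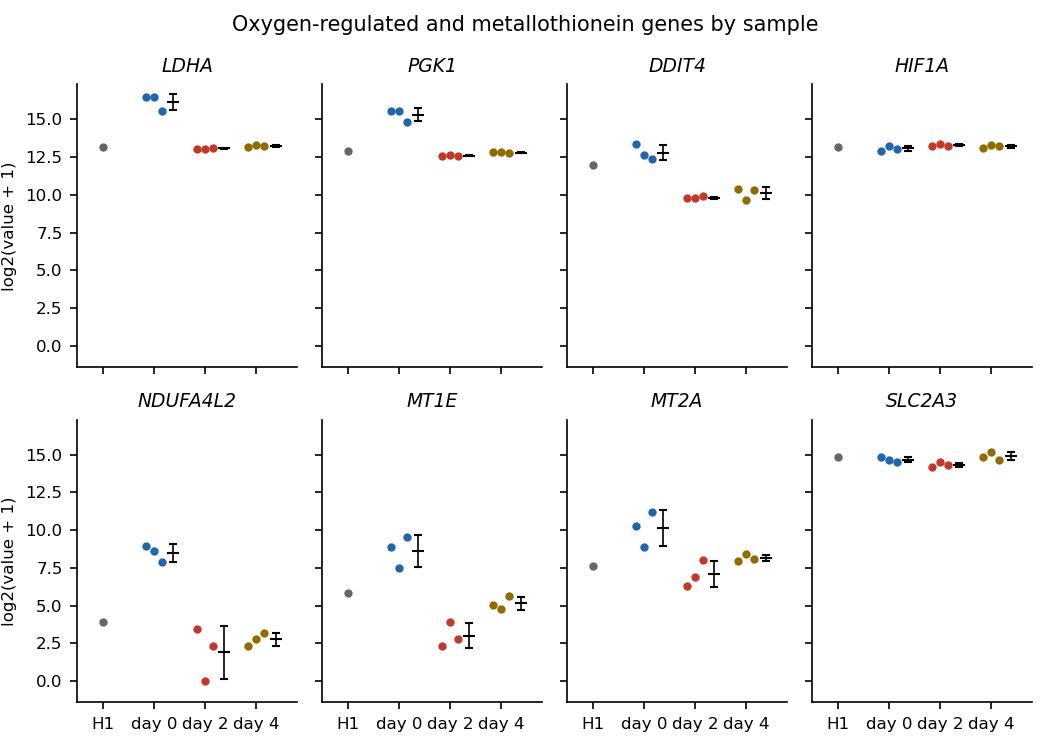
Log2(value + 1) of 8 genes in each library of undifferentiated H1 cells (1 sample), day 0 EBs, day 2 cells and day 4 cells (3 samples each), with the mean and SD at the right of each group of 3. LDHA, PGK1 and DDIT4 were highest in the EBs, and NDUFA4L2, MT1E and MT2A fell with wider spread. In HIF1A and SLC2A3 the values of day 0 and day 2 met at a shared value.

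The largest falls among genes with a mean of at least 100 on day 0 were of several kinds. JAKMIP2-AS1, an antisense transcript, went from 256, 230 and 230 to 0, 0 and 4 (log2 fold change -7.13 ± 0.51, adjusted p = 1.29e-11) and CD300A, a receptor of myeloid cells, from 211, 88 and 116 to 0 in every day 2 library. NDUFA4L2, a mitochondrial protein that hypoxia induces, went from 500, 396 and 232 to 10, 0 and 4 (log2 fold change -6.56 ± 0.72, adjusted p = 5.13e-08) and was at 14 in the undifferentiated library. BHLHE41, a factor of the circadian clock that hypoxia also induces, went from 1070, 571 and 582 to 12, 8 and 4 (log2 fold change -6.41 ± 0.59, adjusted p = 1.93e-09). SORBS2 (-6.24 ± 0.68), ANKRD33 (-6.14 ± 0.72), ELFN2 (-5.80 ± 0.92), UPK1A-AS1 (-5.69 ± 0.70) and NPTX1, a neuronal pentraxin (-5.59 ± 0.75), followed, beside HES3, MT1H and MT1E. Of these 12 genes, 4 had higher values in the undifferentiated library than in any EB library, NPTX1 (1201), SORBS2 (692), HES3 (374) and JAKMIP2-AS1 (274).

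The remaining lists changed little at the fold change of 4. Of 39 cell cycle genes, CCND1, cyclin D1 (1087, 1934 and 2474 to 6690, 6357 and 7902, adjusted p = 2.5e-06), and CDKN2B (2.08 ± 0.56) rose, none fell, and the median was 0.11. Of 24 cholesterol synthesis genes, 1 was called, and 17 were higher at an adjusted p below 0.05, against 17.8% of all genes tested. Of 28 YAP and SRF targets, AMOTL2 (688, 560 and 521 to 6248, 7158 and 6466, log2 fold change 3.50 ± 0.29, adjusted p = 3.97e-10) and ANKRD1 (4.73 ± 0.80) rose. None of 8 DNA methylation genes was called. Of 21 imprinted genes, MEG3, a maternally expressed RNA, fell from 281, 152 and 192 to 19, 29 and 20 (log2 fold change -3.12 ± 0.53, adjusted p = 3.34e-05) and KCNQ1 (-2.01 ± 0.38) with it. Of 37 immediate early and stress genes, EGR3 (3.42 ± 0.62), IER3 (2.24 ± 0.34) and EGR1 passed upwards and none fell. CCND1 (1.998), EGR3 (1.59), KCNQ1 (-1.63) and CDKN2B (0.90) were not called with a pseudocount of 10. Without single libraries CCND1 (1.67 without day 0 replicate 1 and 1.91 without day 2 replicate 3) and KCNQ1 (-1.97 to -1.88 without day 0 replicate 2 or day 2 replicate 2 or 3) were not called either.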

How the data were processed

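Per the methods and the submitters' notes, the authors aligned RNA-seq reads (STAR 2.7, Bowtie2 and RSEM are named, with hg38), counted reads per Ensembl gene and normalised the counts with EDASeq for GC content and between samples. The deposited values are whole-numbered normalised scores of 20255 genes in 34 samples, neither raw counts nor CPM, and all samples hold the same set of values. Depth and counting error are therefore unknown, and errors come from replicates alone. The GC percentage that the authors deposited for each gene was not used.

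Log2(value + 1) was fitted with limma 3.58.1 in R 4.3.3 (trend, 1 mean per population, 33 replicated samples) for the 19788 genes with at least 10 in at least 3 samples. A gene was called where its p-value, adjusted by Benjamini-Hochberg over all genes tested, was below 0.05 and its fold change above 4; ± after a log2 fold change is its standard error. Replicates are independent biological repeats per the methods. No block was used, since the methods name none. Same-numbered day 0 and day 2 samples did not deviate together (correlations of deviations -0.003 to 0.006). The fit was tested on simulated data, in which the shifted genes had day 0 values well above 0. That test set no ceiling and does not cover rises from near 0. The comparison, whose samples the labels define, and the 24 gene lists were chosen with earlier results of these data known, and the lists come from general knowledge. Named were the 12 largest rises and falls among called genes with non-overlapping groups, a mean of at least 100 in the higher group and no clone-based name, all members of the streak, mesoderm, pluripotency and blood lists, and called members of the others; a few of these are not reported here. Alternatives were pseudocounts of 0.1 and 10, other filters, median-of-ratios scaling, quantile normalisation, robust or untrended variances, a fit of 6 samples, a replicate block, a fold change of 2 and leaving out each library; protein-coding genes only was added after seeing the data. Promoters and motifs were matched with Python 3.11.15 and pandas 2.3.3.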

Additional observations from a re-analysis of the deposited data

How the results depend on the processing

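Counts of called genes (1559, with 871 higher and 688 lower) moved by over 1.5 times under 3 settings. With a pseudocount of 10 they were 843, 507 and 336. When only genes reaching 100 in 3 or more samples were tested, 427 genes were called lower. At a fold change above 2, 3697 genes were called, 1763 higher and 1934 lower. The other settings, which were a pseudocount of 0.1, no filter, a filter on the 6 samples, median-of-ratios scaling, robust and untrended variances, a fit of 6 samples and protein-coding genes only, stayed within 1.5 times. Quantile normalisation could not change the counts, since all samples already hold the same set of values, and so is no check. Leaving out 1 library gave from 1502 to 1664 genes, 842 to 909 higher and 637 to 755 lower. With the replicate number as a block, the fit of 33 samples again called 1559 and the fit of 6 samples 1367 (1446 without the block). The numbers share no sign of pairing: deviations of same-numbered samples correlated at 0.001, -0.003 and 0.006.

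Leaving out 1 library turned the sign of 8 genes that were not called, with log2 fold changes of CLDN5 (-0.30 to 0.34), FGF2 (-0.34 to 0.041), HBA1 (-3.15 to 0.62), HBZ (-0.20 to 0.20), PLVAP (-1.20 to 0.46), TIE1 (-0.053 to 0.17), VIM (-0.35 to 0.049) and ZFP42 (-0.014 to 0.12). Lists whose calls of members moved by over 1.5 times with a pseudocount of 10 include the HOX genes (10 of 22) and the blood and endothelial genes (5 of 9). Of the genes named here, 48 lost their call under at least 1 setting that tested them and 30 gained one. Genes that a stricter filter left out of testing count as neither. For 26 of the 30 the gains include the fold change above 2, which only loosens the limit. Values near 0 and at the ceiling of 90700 limit fold changes, and depth could not be read.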

Other observations

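Genes outside the lists, chosen after their values were seen, included hormone and neuropeptide genes. NTS, the gene of neurotensin, stood at 788, 940 and 1122 in the day 0 EBs, at the ceiling of 90700 in each day 2 library and at 2400, 3576 and 2097 on day 4 (day 2 against day 0, log2 fold change 6.59 ± 0.74, adjusted p = 6.67e-08). TRH, the gene of thyrotropin-releasing hormone, went from 16, 0 and 4 to 716, 918 and 846 (log2 fold change 7.55 ± 0.80, adjusted p = 2.38e-08). DIO3, the enzyme that inactivates thyroid hormone, went from 13, 20 and 6 to 3184, 3419 and 3241 (log2 fold change 8.01 ± 0.54, adjusted p = 3.93e-12), and DIO3OS, its neighbour on the other strand with no overlap in the table, from 6, 1 and 0 to 585, 580 and 507. Of the 1559 called genes, 1338 were in none of the 24 lists.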
